A study of Mus musculus with 6 samples.

Results

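The Sprouty and Spred genes described here are Spry1, Spry2, Spry4, Spred1 and Spred2, which encode feedback inhibitors of receptor tyrosine kinase signalling. They were chosen by name, as every probe whose gene symbol in the platform annotation equals 1 of these symbols, which gave 5 of 15123 named genes and 8 of 38467 probes. The arrays profiled RNA of the antrum, the part of the stomach before the pylorus, at postnatal day 14. In each of 3 littermate pairs, antral RNA homozygous for the germline Kit K641E:Neo allele, in which the receptor carries the activating K641E change, was set against Kit WT/WT antral RNA. The labels do not say whether an RNA sample came from a single animal. Each pair was hybridised on 2 arrays of 70-base probes with the Cy5 and Cy3 dyes exchanged, so there are 6 arrays and the pair is the replicate (n = 3). The mutation is in the germline, so every cell type of the tissue carried it, and the antrum was taken as a whole piece.

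Sprouty proteins are made in response to growth factor signalling, and both Sprouty and Spred proteins damp it. A receptor tyrosine kinase such as Kit activates Ras, Raf, MEK and ERK in turn, ERK raises transcription of Sprouty genes, and Sprouty proteins interfere with the chain between the receptor and Raf. Spred proteins carry a Sprouty-related domain together with a domain that binds Kit, and bring the Ras-inactivating protein neurofibromin to the membrane. In the muscle wall of the gut, Kit marks the interstitial cells of Cajal, which pace the contractions of the wall and are held to be the origin of gastrointestinal stromal tumours.

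Each value is a log2 ratio between the channels of 1 array, turned so that they likely run mutant over wild type. This direction assumes red over green, and it was called likely because it puts Spry4 above 0, and the study's paper has Spry4 up-regulated in its title. The sign of Spry4 is therefore no result, and all signs below turn together if the order was the other. Folds rest on base 2, which was assumed. Genes with several probes were averaged, and SE stands for the moderated standard error of limma (n = 3 pairs).

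The stretches upstream of Spry2, Spry1, Spred1 and Spred2 are shown to set 3 genes with mean ratios above 0 beside Spred2, which lay at 0. That of Spry4 was not analysed here. Each line gives the 250 bases before the annotated start of the gene, 5′ to 3′ on the gene's own strand, from RefSeq (build GRCm38.p6). Capitals mark the core letters of ETS factor sites, GGAA or its reverse complement TTCC.
Spry2, chr14:105896820-105897069, minus strand: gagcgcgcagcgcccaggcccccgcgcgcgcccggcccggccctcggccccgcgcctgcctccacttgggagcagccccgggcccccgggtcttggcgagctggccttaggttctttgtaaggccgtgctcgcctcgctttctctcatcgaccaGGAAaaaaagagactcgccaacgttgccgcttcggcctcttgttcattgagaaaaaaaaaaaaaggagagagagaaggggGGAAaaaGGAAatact
Spry1, chr3:37639697-37639946, plus strand: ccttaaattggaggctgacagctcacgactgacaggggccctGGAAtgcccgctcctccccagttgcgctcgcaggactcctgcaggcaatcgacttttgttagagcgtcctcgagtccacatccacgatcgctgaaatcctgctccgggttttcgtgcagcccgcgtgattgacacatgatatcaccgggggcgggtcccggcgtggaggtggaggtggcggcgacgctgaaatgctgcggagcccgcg
Spred1, chr2:117120821-117121070, plus strand: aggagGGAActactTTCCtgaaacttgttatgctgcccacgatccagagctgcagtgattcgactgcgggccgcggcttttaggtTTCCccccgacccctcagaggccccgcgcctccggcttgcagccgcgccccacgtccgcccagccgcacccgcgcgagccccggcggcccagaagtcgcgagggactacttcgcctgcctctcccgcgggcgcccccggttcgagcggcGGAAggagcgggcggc
Spred2, chr11:19924192-19924441, plus strand: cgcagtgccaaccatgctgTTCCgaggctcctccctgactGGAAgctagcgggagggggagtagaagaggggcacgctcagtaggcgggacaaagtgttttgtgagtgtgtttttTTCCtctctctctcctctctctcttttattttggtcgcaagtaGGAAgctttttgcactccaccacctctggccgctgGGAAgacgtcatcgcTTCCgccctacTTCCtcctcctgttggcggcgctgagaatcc

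The ETS core letters, searched on both strands, occur 3 times in the Spry2 window, 1 time in that of Spry1, 4 times in that of Spred1 and 7 times in that of Spred2. They stand in 93.4% of the 32851 windows of the same length in the table, with a median of 3 a window, so their presence does not mark these genes. The longer ETS letters CCGGAA, which contain the core, the AP-1 letters TGANTCA and the cyclic AMP response letters TGACGTCA, on both strands, are in 0 of the 4 windows. These are in 12.0%, 6.75% and 1.55% of all windows. CG dinucleotides number 23 in the windows of Spry1 and Spry2, 31 in that of Spred1 and 12 in that of Spred2, against a median of 6. The letters describe these windows only, and factor binding was not measured.

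Of the 5 genes, Spry4 had the highest ratio, Spry2, Spry1 and Spred1 lay lower but above 0, and Spred2 lay at 0. None passed the limma test over all 30649 features, where 0.00653% of features were called higher and 0% lower (adjusted p under 0.05). Two-sided at an unadjusted 0.05, 3 of the 5 were higher (Spry4, Spry2 and Spry1) and 0 lower, where 2.74% and 2.16% of all features were. Above 0 on all 6 arrays were 2 of the 5, Spry4 and Spry2, against 3.87% of all features; 0 of the 5 were below 0 on all 6, against 3.45%. The members were chosen with earlier results of these data known, so these shares describe them and test nothing.

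**Figure D1:**
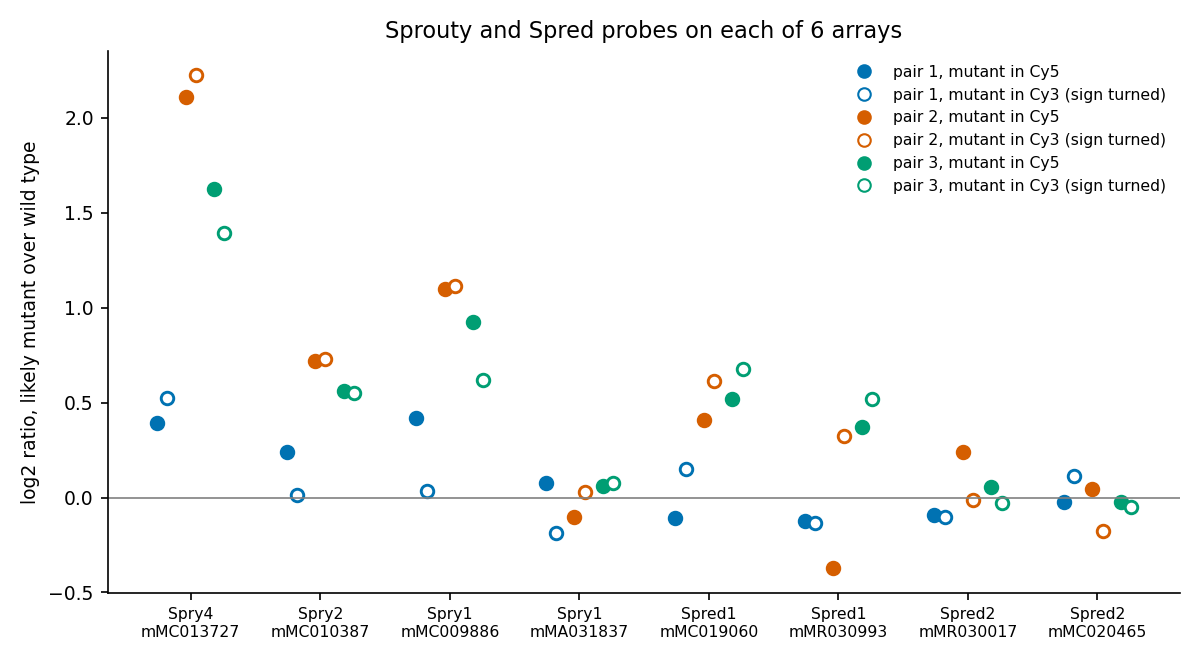
Log2 ratio of each of the 8 probes (vertical axis) on each of the 6 arrays, by gene and probe; colours mark the 3 littermate pairs, filled points the arrays with the mutant in Cy5 and open points those with the mutant in Cy3, sign turned. Spry4 runs from 0.39 to 2.22, one Spry1 probe follows the same order of pairs and the other stays between -0.19 and 0.08.

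Spry4 encodes the Sprouty protein Sprouty 4 and was measured by 1 probe. In pair 1 it had 0.39 with the mutant in Cy5 and 0.52 with the mutant in Cy3. In pair 2 it had 2.11 and 2.22, and in pair 3 it had 1.62 and 1.39. All 6 values were above 0, and the values of the pairs did not overlap, with pair 1 lowest and pair 2 highest. The mean over pairs was 1.38 ± 0.36 (SE, n = 3), a 2.60-fold difference, with a 95% interval from 0.35 to 2.41 and a limma adjusted p of 0.923. It ranked 64 of 30649 features from the highest. The arrays with the mutant in Cy5 and those with it in Cy3 gave means of 1.38 each.

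The ratio of Spry4 was not the same in every pair. As folds, the pair means came to 1.37 in pair 1, 4.49 in pair 2 and 2.84 in pair 3. Both arrays of a pair carry 1 set of RNA samples and so give the technical spread, against which pairs were compared with a limma F test that had dye as a term. Spry4 differed between pairs (F = 121, adjusted p 0.00105), as did 16.7% of all features at an adjusted p of 0.05. Pair 2 lay 1.71 and pair 3 lay 1.05 above pair 1, against a technical SE of 0.079 for a pair mean. This spread is of arrays, not of animals.

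Spry2 encodes Sprouty 2, the family member best studied as a substrate and partner of the ubiquitin ligase Cbl, and was also measured by 1 probe. It had 0.24 and 0.013 in pair 1, 0.72 and 0.73 in pair 2, and 0.56 and 0.55 in pair 3, the mutant in Cy5 given first. All 6 values were above 0, in the same order of pairs as Spry4 and without overlap, though the lowest lay next to 0. The mean was 0.47 ± 0.13 (SE, n = 3), a 1.38-fold difference, with an interval from 0.09 to 0.85 and a limma adjusted p of 0.923. Pairs differed (F = 23.1, limma adjusted p 0.0168). In pair 1 the 2 arrays lay 0.23 apart, and in pairs 2 and 3 by 0.011 and 0.0090.

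Spry1 encodes Sprouty 1, known for restraining Ret signalling in the developing kidney, and its 2 probes disagreed. Probe mMC009886 had 0.42 and 0.034 in pair 1, 1.10 and 1.11 in pair 2, and 0.93 and 0.62 in pair 3. Probe mMA031837 had 0.08 and -0.19 in pair 1, -0.10 and 0.031 in pair 2, and 0.06 and 0.08 in pair 3. The former was above 0 on 6 of 6 arrays and followed the order of pairs of Spry4 and Spry2, while the latter crossed 0 in pairs 1 and 2. Their means were 0.70 ± 0.19 and -0.0078 ± 0.049 (SE, n = 3), a gap of 0.71. Among 3591 genes with 2 probes the median gap was 0.07, and 0.640% had a gap this large. The annotation gives both probes the same transcript accession, and where each lies in the transcript was not analysed here.

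Averaged, Spry1 had 0.35 ± 0.10 (SE, n = 3), a 1.27-fold difference, with an interval from 0.05 to 0.64. The limma adjusted p was 0.923. The value depends on which probe is taken. Its arrays ran from -0.08 to 0.57, and the pair means were 0.09, 0.54 and 0.42. Differences between pairs did not pass (limma adjusted p 0.0770).

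Spred1 encodes the Spred protein whose loss in humans causes Legius syndrome, and its 2 probes differed less. Probe mMC019060 had -0.11 and 0.15 in pair 1, 0.41 and 0.61 in pair 2, and 0.52 and 0.68 in pair 3. Probe mMR030993 had -0.13 and -0.13 in pair 1, -0.37 and 0.33 in pair 2, and 0.37 and 0.52 in pair 3. Both probes were highest in pair 3 and near or below 0 in pair 1. In pair 2 the arrays of the second-named probe lay 0.70 apart and had opposite signs.

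The mean of Spred1 was 0.24 ± 0.13 (SE, n = 3), with an interval from -0.12 to 0.59 and a limma adjusted p of 0.923. The pair means were -0.05, 0.24 and 0.52. Unlike the 3 Sprouty genes, it was higher in pair 3 than in pair 2. Pairs differed (F = 15.3, limma adjusted p 0.0338), a call that ended without the dye term (0.115). The arrays with the mutant in Cy3 gave 0.36 and those with it in Cy5 gave 0.12.

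Spred2 encodes the other widely expressed Spred protein and lay at 0. Its 2 probes ran over the 6 arrays from -0.18 to 0.12 and from -0.10 to 0.24. The mean was -0.0041 ± 0.039 (SE, n = 3), with an interval from -0.11 to 0.11 and a limma adjusted p of 0.993. The pair means of -0.025, 0.024 and -0.011 did not differ beyond the technical spread (limma adjusted p 0.931). Of the other relatives, Spry3 is not named among the probes. Spred3 had 1 probe with a mean of -0.0033 ± 0.044 and pair means of -0.055, -0.012 and 0.057.

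**Figure D2:**
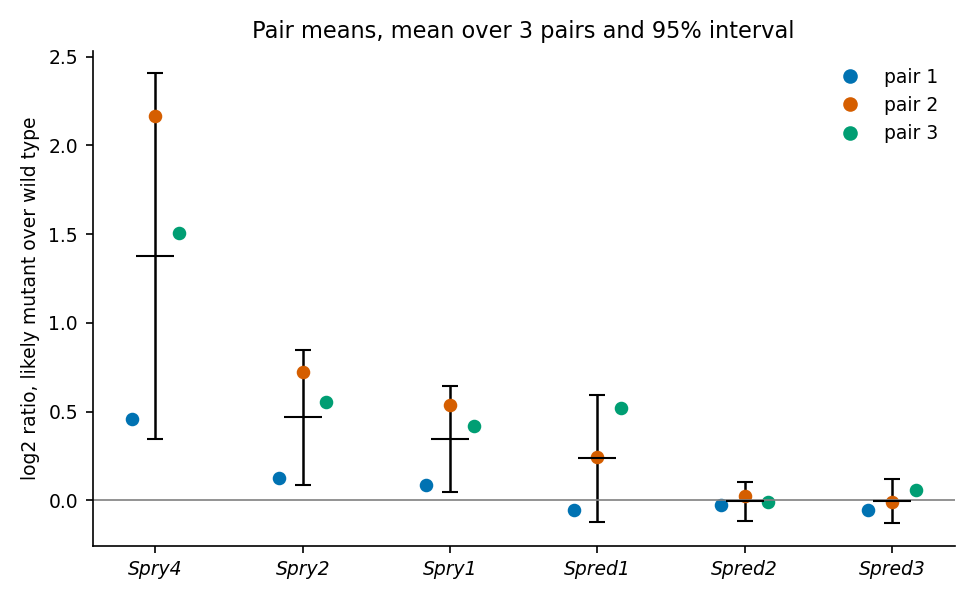
Log2 ratio (vertical axis) of the 5 genes and of Spred3; points are the 3 pair means, the horizontal bar the mean over pairs and the error bar limma's 95% interval. Spry4 has the highest mean, 1.38, and the widest interval, and Spred2 and Spred3 lie at 0.

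From highest to lowest mean the order was Spry4, Spry2, Spry1, Spred1 and Spred2. Spry4 was above each other member on 6 of 6 arrays. It exceeded Spry2 by 0.33 in pair 1, 1.44 in pair 2 and 0.95 in pair 3, a mean difference of 0.91 with an SD of 0.56. Spry2 was above Spry1 on 5 of 6 arrays, and the Spry1 average lay 0.12 below it with an SD of 0.07. Spry1 was above Spred1 in pairs 1 and 2 and below it in pair 3, so these neighbours did not keep an order. Over the 10 pairs of members an exact two-sided sign-flip permutation test gave 0.25 or more for each difference, and 0.25 is the smallest p that 3 pairs allow. Probes can respond to a change with different slopes, so differences in size between genes are also differences between probes.

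Pair 1 gave the lowest pair mean for 5 of the 5 genes, where 34.9% of all features have it lowest. The order pair 1, pair 3, pair 2 held for 4 of them, where 20.5% of all features have it. For Spred2 these differences lay within the technical spread. With pair 1 left out, Spry4, Spry2, Spry1 and Spred1 were above 0 on each of the other 4 arrays, where 14% of features were. The means were then 1.84, 0.64, 0.48 and 0.38, and had to rise because pair 1 was lowest for these genes. Without pair 2 or without pair 3, 2 of the 5 were above 0 on the arrays left, where 10.1% and 8.13% of features were. Counting signs with a pair left out was a choice made after seeing the data, so these shares test nothing.

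Kit, the mutated receptor, differed between pairs as well. It had -0.009 and -0.035 in pair 1, 1.75 and 2.03 in pair 2, and 0.68 and 0.95 in pair 3. In pair 1, Kit lay at 0 while Spry4 had 0.46, and in the other pairs both were above 0. The mean of Kit was 0.89 ± 0.40 (SE, n = 3; limma adjusted p 0.923). The array probe measures transcript level and does not tell the K641E allele from the wild-type one, so it does not check the labels.

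Transcripts of several cell types and organs moved with the pairs, and their part in the Sprouty and Spred values was not tested. Of 13 genes of the interstitial cells of Cajal, 11 had a mean above 0 and 9 were above 0 on all 6 arrays, where 52.1% and 3.87% of all features were. The list was chosen with earlier results of these data known, and the direction was set from Spry4, so these counts describe the list and test nothing. Its medians were 0.14, 1.37 and 0.77 in pairs 1, 2 and 3. Their order of pairs is that of Spry4, Spry2 and Spry1, while Ano1, the chloride channel that marks these cells, had a mean of -0.11. In whole tissue, more cells of a type and more RNA per cell cannot be told apart.

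The order pair 1, pair 3, pair 2 from lowest to highest was not particular to interstitial cell genes. It held for the medians of 8 of 13 marker lists, those of interstitial cells, smooth muscle, fibroblasts, endothelium, glia, leukocytes, adipose tissue and liver. The order of a list median need not be that of its genes. No measured adipose gene had this order in its own pair means, and of the 2 glia genes measured Gfap had it and S100b did not. All 14 measured liver genes had a mean above 0, with medians of -0.13, 3.17 and 2.39 in the 3 pairs, and albumin, Alb, had -0.27, 5.58 and 5.14. The 8 exocrine pancreas genes had medians of -2.41, -0.08 and 0.07, so pair 1 also stood apart there. Other lists ran differently. Medians were highest in pair 1 for 7 gastric epithelium genes (0.23, -0.24 and -0.33) and 2 red blood cell genes (0.88, -0.12 and -0.31). For 9 enteric neuron genes they rose from pair 1 to pair 3 (-0.42, 0.09 and 0.22). Smooth muscle genes (13) had -0.76, 0.36 and -0.63, with -1.23, 0.36 and -0.81 for Acta2, smooth muscle actin. The 7 leukocyte genes had -0.25, 0.31 and 0.24. Medians were -0.45, 0.03 and -0.19 for 6 fibroblast genes, -0.45, 0.06 and -0.07 for 8 endothelial genes, and -0.15, 0.24 and 0.23 for 6 adipose genes. Mast cells also depend on Kit, and their 9 genes had 0.07, 0.01 and -0.02. These medians join genes of opposite direction: 1 was above 0 on all 6 arrays and 2 were below, against 3.87% and 3.45% of all features. Y-linked Eif2s3y had -5.06 in pair 3 against -0.025 and -0.045 in pairs 1 and 2, and the part of sex in the Sprouty and Spred values was not tested.

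**Figure D3:**
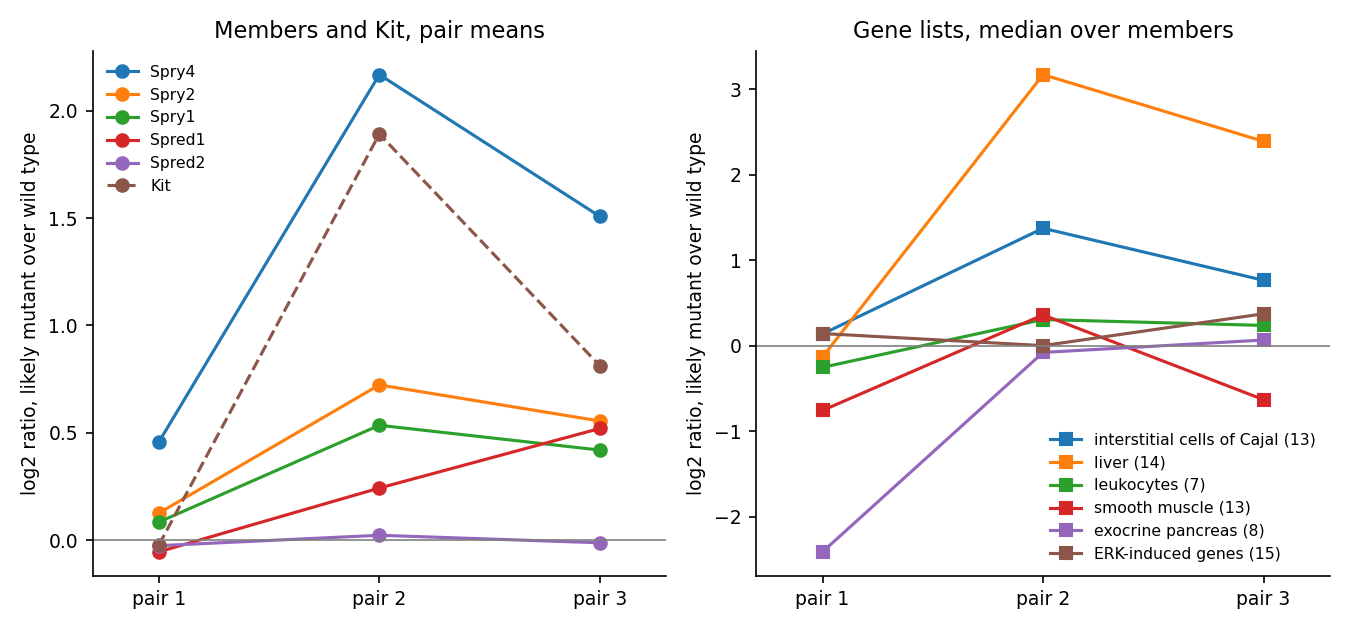
Left, log2 ratio of the 5 genes and Kit in each of the 3 pairs (pair means); right, the median log2 ratio of 6 gene lists in each pair, with the number of genes measured in brackets. Lines join values of the same gene or list; Spry4, Spry2, Spry1, Kit and the medians of the interstitial cell, liver, leukocyte and smooth muscle genes are each lowest in pair 1 and highest in pair 2.

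Other genes that ERK signalling induces were examined as a list of 16, of which 15 were measured. None passed the limma test in either direction, 2 were higher at an unadjusted 0.05 and 0 lower, and the list median was 0.13 against 0.0035 over all features. Above 0 on all 6 arrays were 4 genes (3.87% of features), and 0 were below. This list, too, was chosen with earlier results of these data known, so its counts test nothing. Etv4, an ETS factor of the PEA3 group, had 0.41 ± 0.11, with 0.22, 0.33 and 0.68 in the 3 pairs. Dusp6, the phosphatase that inactivates ERK, had 0.505 ± 0.169, with 0.22, 0.95 and 0.34. Etv1, the PEA3 factor on which interstitial cells depend, had 0.89 ± 0.35, with 0.08, 1.73 and 0.86.

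Epha4, an ephrin receptor, had 0.76 ± 0.33, with 0.11, 1.62 and 0.55 in the 3 pairs. At the other end of the list Etv5, the third PEA3 factor, had -0.17 ± 0.11, with 0.12, -0.30 and -0.35. Dusp6, Etv1 and Epha4 had the order of pairs of Spry4, which 20.5% of all features have, and Etv4 that of Spred1. These 4 were named for being above 0 on all 6 arrays, so their orders do not stand for the list. Of the 15 genes, 13 were above 0 in pair 1, 8 in pair 2 and 13 in pair 3. Of all 30649 features, 15664, 15690 and 15511 were. The list as a whole had pair medians of 0.14, 0.0020 and 0.37, lowest in pair 2, where Spry4, Spry2 and Spry1 were highest. Pairs differed for 12 of the 15 genes by the limma F test, against 16.7% of features.

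The signalling chain on which Sprouty and Spred proteins act was examined as a list of 24 partners, 18 of them measured. None passed over all features, 0 were higher or lower at an unadjusted 0.05, and the median was 0.025. Besides Kit, the gene furthest from 0 was Map2k1, which encodes the ERK kinase MEK1, with 0.57 ± 0.25 and pair means of 0.22, 1.25 and 0.24. It was above 0 on 6 of 6 arrays, but in pair 2 the arrays gave 1.88 and 0.61. The lowest was Mknk1, a kinase downstream of ERK, with -0.12 ± 0.14. Nf1, which encodes neurofibromin, the Spred partner, had 0.0018 ± 0.065, and Cbl had -0.015 ± 0.038; both were singled out after their values were seen.

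**Figure D4:**
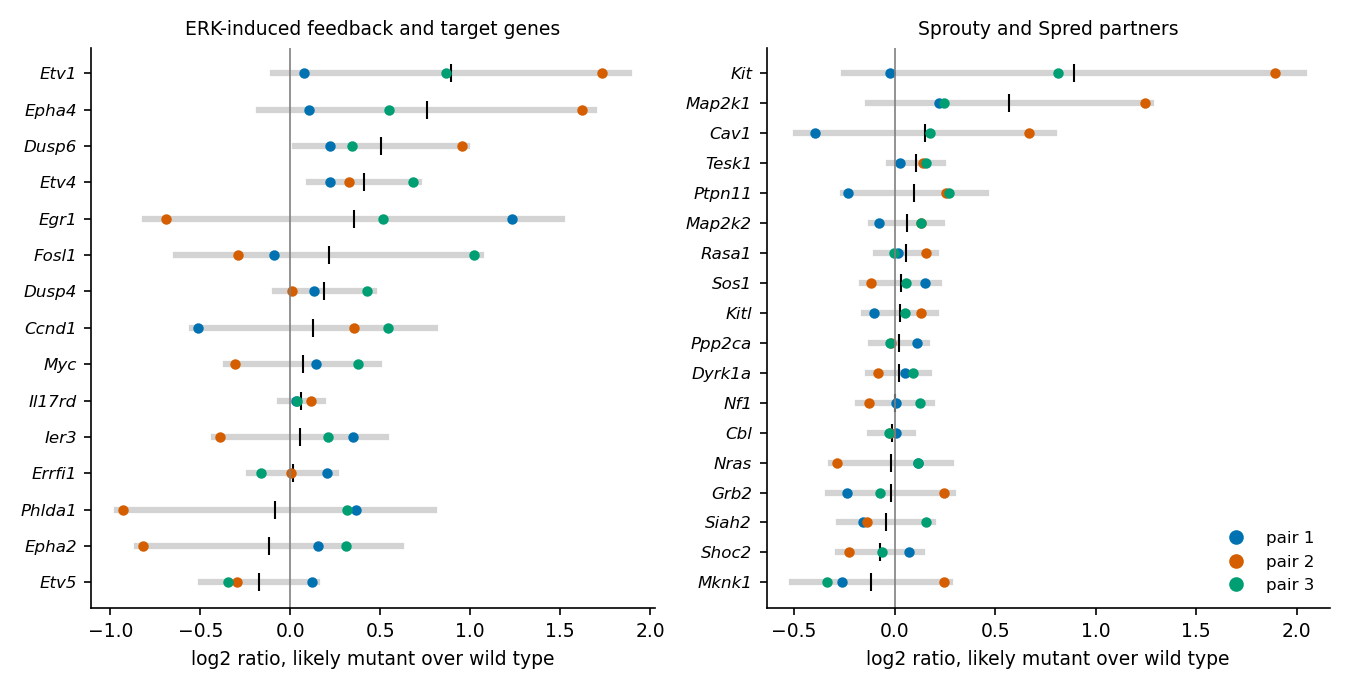
Log2 ratio (horizontal axis) of 15 ERK-induced genes (left) and 18 Sprouty and Spred partners (right), ordered by mean; points are the 3 pair means, black marks the means over pairs and grey bars limma's 95% intervals. Etv1, Epha4, Dusp6 and Etv4 lie at the top of the left panel with 3 pair means above 0, and most partners cluster near 0.

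The genes whose values lay closest to those of Spry4 were found by the root mean square difference over the 6 arrays, among 15123 named genes. They were Lhfp, a tetraspan membrane protein gene (0.12), Pde3a, a cyclic nucleotide phosphodiesterase of interstitial cells (0.18), Spsb4, a SOCS-box protein gene (0.19), Prkar2b, a regulatory subunit of protein kinase A (0.23), and Cyp4a14, a liver fatty acid hydroxylase (0.24). Pde3a had pair means of 0.67, 2.29 and 1.64 beside the 0.46, 2.17 and 1.51 of Spry4. Within a difference of 0.2 lay 3 named genes for Spry4, 91 for Spry2, 185 for Spry1, 145 for Spred1 and 8997 for Spred2. The nearest genes were Inpp5a, Ppm1j and Sh3bgrl for Spry2, Lactb, Gpx8 and Tfpi for Spry1, and Cadm1, Rgs19 and Zfp367 for Spred1. For Spred2 they were Klra5, Krtap13 and Col5a3, out of the many genes with ratios near 0. The 6 arrays come from 3 pairs of RNA samples, so likeness here is a description.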

How the data were processed

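The authors deposited 1 table of 38467 probes for 6 two-colour arrays, whose values were read as log2 ratios. The base is an inference: values are signed and reach 5.831, while a log10 ratio from a 16-bit scanner ends at 4.82, and a natural logarithm could not be told apart. Array medians lay between -0.003 and 0.004. Background correction and normalization: not given in the sources used here. Arrays of a pair correlated at -0.61, -0.74 and -0.83, so values follow the dyes, and the sign of arrays with the mutant in Cy3 was turned. Between pairs the likeness was weaker. Over features, pair means correlated at -0.08 for pairs 1 and 2, 0.11 for pairs 1 and 3, and 0.45 for pairs 2 and 3. Intensities were not used here, so background and saturation are unknown, and the number of pairs (n = 3) limits the precision.

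Probes were named from the platform annotation (1 symbol for 22941, none for 15526), and all 22941 gene identifiers matched RefSeq. Pair means were tested against 0 with limma 3.58.1 (R 4.3.3), two-sided, Benjamini-Hochberg over 30649 features at 0.05, and pairs were compared with a limma F test on 6 arrays. Both were run on simulated data with normal errors drawn independently for each feature, unlike these data, where lists of genes moved together within pairs. The outcome is not given here, so that run does not back the calls. Members, lists and rules were chosen with earlier results of these data known: named are all members, Spred3, Kit, list genes with 1 sign on 6 arrays, the highest and lowest gene of a pathway list, the nearest genes, and the first gene of a marker list. Ano1, Nf1, Cbl, Eif2s3y, Gfap and S100b were chosen after their values were seen. Alternatives covered centring, scaling, probe averaging, dye, the variance model, the features tested, a random block for pairs, and leaving out pairs.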

Additional observations from a re-analysis of the deposited data

Results flagged for a closer look

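Each of 57 results was examined over the 6 arrays for a single array standing apart, which 2 showed. With independent samples chance gives about 1 in 20, but arrays of a pair share RNA. Map2k1 lay at 1.879 in pair 2 with the mutant in Cy5, where the other 5 arrays ran from 0.168 to 0.614. Lactb, the gene nearest to Spry1, had -0.090 on the pair 1 array labelled Cy3 for the mutant, where the others ran from 0.316 to 0.538. None of the 5 Sprouty and Spred genes or their probes had such an array.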

How the results depend on the processing

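Under 12 alternatives each for Spry4 and Spry2 and 13 for Spred1, the mean kept its sign, and none passed. The random block, the median of probes, the features tested and the robust variance model leave the mean of every member as it was. Single probes do so for Spry4 and Spry2, which have 1 each. Centring moved Spry2 only from 0.4687 to 0.4685. Kept signs under these settings say nothing about stability. Scaling, single dyes and leaving out a pair could change the mean, as could single probes for Spred1. Adjusted p-values ran from 0.141 to 1.00 for Spry4, 0.193 to 1.00 for Spry2 and 0.490 to 1.00 for Spred1. Leaving out a pair gave 0.98 to 1.84 for Spry4, 0.34 to 0.64 for Spry2, 0.25 to 0.48 for Spry1 and 0.095 to 0.38 for Spred1. Spry1 kept its sign under 12 of 13 and turned to -0.0078 with probe mMA031837 alone (0.70 with the other). Spred2 ran from -0.018 to 0.0063 without a pair, and turned to 0.034 with the mutant in Cy5 only, to 0.010 with probe mMR030017 alone and to 0.0063 without pair 1. The difference of Spred1 between pairs ended without the dye term (adjusted p 0.115). Members with 1 sign on every array numbered 2 to 4 when a pair was left out (a choice made after seeing the data), 2 with centring and 3 when probes were counted. Features higher numbered 44 and lower 17 with the pair as a random block, 0 higher with scaled arrays, with single probes, with Cy5-mutant arrays alone and with any pair left out, and 1 with the mutant in Cy3 only. Of 144 list medians under alternatives, 140 moved by less than the SD of the list's 3 pair medians. That SD is wide where pairs differ, so this count says little about stability. Without pair 1, for example, exocrine pancreas went from -0.83 to 0.018 and smooth muscle from -0.40 to -0.086, both within it. Signal over background is not in the table.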
